A study of Mus musculus with 20 samples.

Results

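The 8 genes described here encode proteins of myelin and of the Schwann cells that make it: *Mbp*, *Pmp22*, *Mag*, *Mal*, *Prx*, *Cnp*, *Sox10* and *Egr2*. They were chosen by name, as 8 of the 25655 genes counted in RNA of the mouse utricle, a vestibular organ of the inner ear. Female C57BL/6J mice were operated on at 8 weeks of age and carried a pellet under the skin. The sham + v group had a sham operation and a vehicle pellet, and the OVX + v group an ovariectomy and a vehicle pellet. The OVX + E2 group had an ovariectomy and a pellet of 50 µg of estradiol for 60 days, and the OVX + RAL group an ovariectomy and a pellet of 2.4 mg of raloxifene for 60 days. Each group has 5 libraries, from utricles dissected 4 weeks postoperatively. Estradiol is the main ovarian estrogen, and raloxifene acts on the same receptors in a way that depends on the tissue. Libraries are named by the numbers of the labels, which run from 1 to 20 over the 4 groups.

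Schwann cells wrap the axons of peripheral nerves, and in the utricle they ensheath the vestibular nerve fibres that run below the sensory epithelium. The wrapped membrane is compacted by structural proteins and kept in contact with the axon by adhesion proteins, under the control of a few transcription factors. Oligodendrocytes make the myelin of the central nervous system with an overlapping set of proteins. Thus *Mbp*, *Mag*, *Mal*, *Cnp* and *Sox10* alone do not tell Schwann cells and oligodendrocytes apart. *Prx* belongs to the myelin of Schwann cells and not to that of oligodendrocytes. Whether other cells of the organ also express it was not tested.

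The libraries held between 1123053 and 2081747 counts, and 7427 to 10694 genes had a count in a library. OVX + E2 replicates 13 and 14 had the fewest, 7547 and 7427, and also the fewest when every library was scaled to the smallest depth (7485 and 7427). The number of genes was 7427 to 9680 in the OVX + E2 libraries and 10004 to 10694 in the OVX + v libraries. It was 10103 to 10290 in the OVX + RAL and 8651 to 10625 in the sham + v libraries. Levels are given as CPM, the counts of a gene after every library is scaled to the same total. The kit reads the 3′ ends of mRNA, so that counts were not divided by gene length.

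The markers of the tissue were present. *Otog*, a gene of the membrane over the sensory epithelium, had a mean of 2508 CPM, and *Pou4f3*, a transcription factor of hair cells, had 276 CPM. *Prx* had at least 14.6 CPM in every library. Of 8 oligodendrocyte markers, *Mog*, *Opalin*, *Olig1*, *Olig2* and *Klk6* were at 0 in all 20 libraries, and *Mobp* had 1 count in 1 library. *Ermn* had counts in 2 libraries and *Hapln2* in 1. The summed level of the 8 markers was 0 to 51.1 CPM in OVX + v libraries, 0 to 14.9 CPM in OVX + RAL libraries and 0 in every other library. In pieces of a whole organ, fewer Schwann cells and less RNA per Schwann cell cannot be told apart.

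The 8 genes spanned a wide range of levels. *Mbp* was the highest, with a mean of 670 CPM over the 20 libraries, and ranked 165 among all genes. It was followed by *Sox10* (373 CPM), *Pmp22* (327 CPM), *Mal* (186 CPM), *Cnp* (124 CPM), *Prx* (82.4 CPM), *Mag* (38.5 CPM) and *Egr2* (16.2 CPM). *Sox10* and *Pmp22* are neighbours in this order whose ranges of 141 to 590 CPM and 165 to 569 CPM overlapped. The coefficient of variation within groups was 35.1% for *Mbp* and 34.6% for *Pmp22*, and reached 167% for *Mag* and 148% for *Egr2*.

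**Figure D1:**
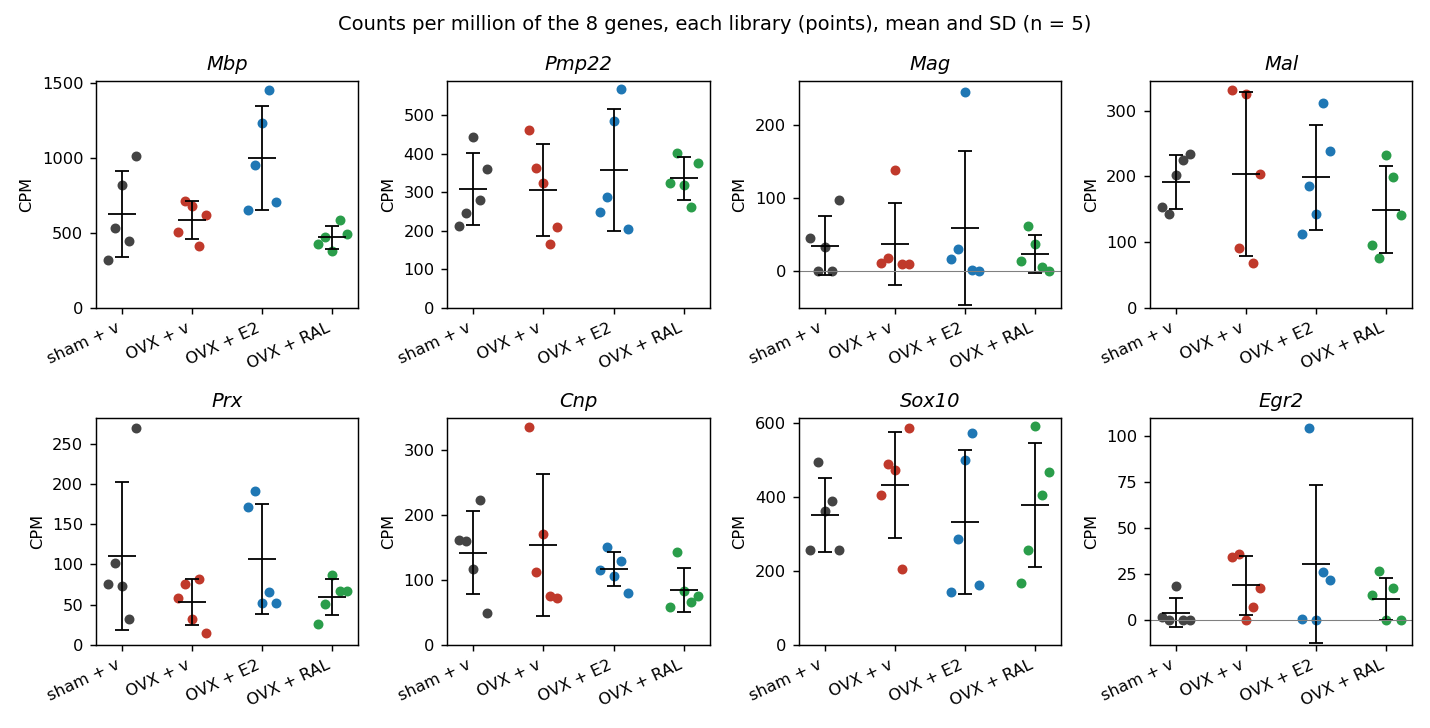
CPM (vertical axis, linear) of each of the 8 genes in the 4 groups; points are libraries, and the black bar and whiskers give the mean and SD (n = 5). The 5 OVX + E2 values of *Mbp* lie above the 5 OVX + RAL values, and in the other panels the groups overlap.

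No member passed the threshold in any comparison with the OVX + v group. With the threshold at 0.05, by the quasi-likelihood test of edgeR adjusted over all genes, 0 of 8 members were called for sham + v, against 0.0145% of all genes tested. With estradiol it was 0 of 8 against 0.0584%, and with raloxifene 0 of 8 against 0.0286%. In a test of any difference among the 4 groups it was 0 of 8 against 0.141%. DESeq2 also called 0 members in these 4 tests, against 0.098%, 0.32%, 0.0318% and 0.0151% of the genes it gave a p-value, but gave *Mag* no p-value for OVX + E2. At an unadjusted p under 0.05, edgeR and DESeq2 each gave 0 members for sham + v, 1 for OVX + E2, 0 for OVX + RAL and 1 for the test among the 4 groups. That 1 member was *Mbp*. By edgeR this was 12.5% of the members, beside 13.9% of all genes for OVX + E2 and 16.3% for the test among the 4 groups. By DESeq2 it was 1 of 7 members with a p-value, beside 6.05% of the genes with one, for OVX + E2, and 1 of 8 beside 3.17% for the test among the 4 groups.

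*Mbp* encodes myelin basic protein, which holds the cytoplasmic faces of the myelin membrane together. In the sham + v group it had 319, 531, 823, 443 and 1011 CPM in replicates 1 to 5, and in the OVX + v group 503, 713, 681, 411 and 619 CPM in replicates 6 to 10. In the OVX + E2 group it had 652, 951, 1235, 1457 and 706 CPM in replicates 11 to 15, and in the OVX + RAL group 425, 472, 378, 585 and 489 CPM in replicates 16 to 20. The highest 2 of all 20 values were those of OVX + E2 replicates 14 and 13. Of the OVX + E2 libraries, 3 of 5 lay above every OVX + v library, and these groups overlapped.

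The mean of *Mbp* was 1000 ± 344 CPM in OVX + E2 (SD, n = 5), 585 ± 126 CPM in OVX + v, 625 ± 285 CPM in sham + v and 470 ± 77.9 CPM in OVX + RAL. The log2 fold change of the OVX + E2 group against the OVX + v group was 0.77 (standard error 0.238), with an unadjusted p of 0.00117 and an adjusted p of 0.351 by edgeR, so that it did not pass. The adjusted p ranged from 0.101 to 1 over 18 alternatives. Without OVX + E2 replicates 13 and 14, the libraries with the fewest genes, the log2 fold change was 0.39 (standard error 0.277, adjusted p = 0.653, edgeR). With the number of genes with a count as a covariate it was -0.03 (standard error 0.426, adjusted p = 1, edgeR). In this fit the covariate and the group cannot be told apart. The OVX + E2 libraries (7427 to 9680 genes) and the OVX + v libraries (10004 to 10694 genes) did not overlap in it. Against the same controls, sham + v stood at 0.10 (standard error 0.252) and OVX + RAL at -0.32 (standard error 0.261) on the log2 scale. In the test among the 4 groups the adjusted p of *Mbp* was 0.128, and it was 0.0368 in the fit without OVX + E2 replicate 11, where *Mbp* alone of the 8 members passed, against 0.189% of genes.

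Every OVX + E2 library had more *Mbp* than every OVX + RAL library. This was so for 1 of 8 members, against 0.24% of the genes with at least 10 counts in these groups. The 2 groups were therefore also compared directly, a comparison made after these values were seen and thus a description of them. The log2 fold change of *Mbp* was 1.09 (standard error 0.273, adjusted p = 0.0747, edgeR), and 0 of 8 members passed, against 0.0727% of genes. DESeq2 called 1 of 8 members, *Mbp* (adjusted p = 0.0275), against 0.351% of the genes with a p-value. The edgeR fit of all 4 groups also called *Mbp* alone (adjusted p = 0.0362), against 0.108% of genes. It was again the 1 member that passed without OVX + E2 replicate 11 (adjusted p = 0.0157, against 0.118% of genes) and without replicate 15 (adjusted p = 0.0378, against 0.103%). Without replicates 13 and 14 the log2 fold change was 0.71 (adjusted p = 0.642), and with the number of genes as a covariate 0.18 (adjusted p = 1). The number of genes also did not overlap between OVX + E2 (7427 to 9680) and OVX + RAL (10103 to 10290). The covariate fit therefore cannot tell it apart from the group.

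**Figure D2:**
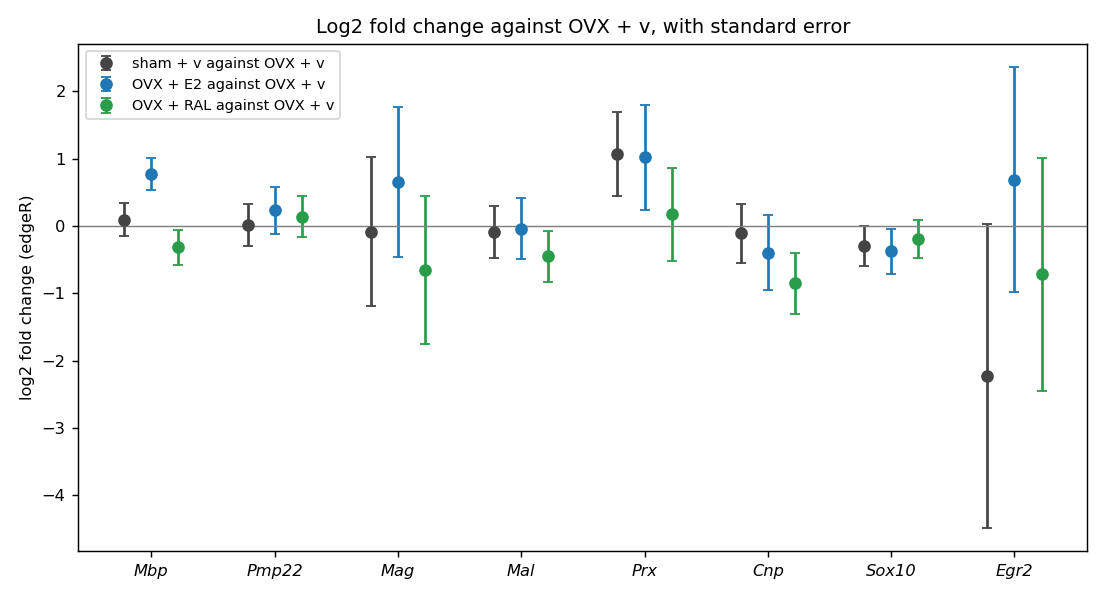
Log2 fold change with OVX + v as the reference (vertical axis) of each of the 8 genes in the 3 comparisons, which share the OVX + v libraries; bars are standard errors of edgeR. *Mbp* in the OVX + E2 group stands at 0.77, and the widest bars are those of *Egr2* and *Mag*.

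The level of *Mbp* was compared with the number of genes detected in a library, and no correlation passed after adjustment. Over the 20 libraries, Pearson's r between log2(CPM + 1) of *Mbp* and the number of genes with a count stood at -0.780 (permutation p = 0.00013, adjusted p = 0.0910 over 10916 genes), and Spearman's rho was -0.620 (permutation p = 0.00445, adjusted p = 0.363). Of these 10916 genes, *Mbp* had the 3rd lowest r. It was -0.581 without the 2 libraries farthest from the median number of genes, which were OVX + E2 replicates 13 and 14, and -0.638 after the group means were subtracted. The part of the number of genes in the group values of *Mbp* was not tested further.

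*Pmp22* encodes a membrane protein of compact peripheral myelin whose dosage is altered in inherited neuropathies. Its mean was 308 ± 93.1 CPM in sham + v, 305 ± 119 CPM in OVX + v, 359 ± 159 CPM in OVX + E2 and 336 ± 54.9 CPM in OVX + RAL (SD, n = 5). Against OVX + v, its log2 fold change was 0.01 (standard error 0.318) for sham + v, 0.23 (standard error 0.350) with estradiol and 0.14 (standard error 0.301) with raloxifene. The highest values, 569 and 484 CPM, were those of OVX + E2 replicates 14 and 13, and without both the OVX + E2 log2 fold change was -0.31. It was 0.0046 without replicate 14 alone and 0.43 without OVX + v replicate 6. The ratio of *Pmp22* to *Mbp* was 0.351 ± 0.0505 in OVX + E2 and 0.734 ± 0.166 in OVX + RAL, with ranges of 0.289 to 0.392 and 0.445 to 0.851. It was 0.530 ± 0.228 in OVX + v (0.340 to 0.920) and 0.531 ± 0.127 in sham + v (0.357 to 0.670), which both overlapped the range of OVX + E2. *Mbp* made up 43.5% to 48.2% of the summed CPM of the 8 genes in the OVX + E2 libraries, 23.5% to 40.2% in the OVX + v, 26.0% to 44.4% in the sham + v and 21.9% to 37.9% in the OVX + RAL libraries. These ratios are descriptions without a test.

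*Mal* encodes a lipid-raft protein that takes part in sorting membrane to myelin. It had 332, 91.0, 326, 67.9 and 203 CPM in OVX + v replicates 6 to 10, a spread as wide as that of all 20 libraries. Its means were 191 ± 41.5 CPM in sham + v, 204 ± 125 CPM in OVX + v, 198 ± 79.4 CPM in OVX + E2 and 149 ± 66.3 CPM in OVX + RAL. Of its 3 log2 fold changes, that with raloxifene was the largest in size, at -0.45 (standard error 0.381), and it was -0.21 without OVX + v replicate 6 and -0.67 without OVX + v replicate 9.

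*Mag* encodes an adhesion protein of the myelin layer next to the axon. It was at or near the floor in part of the libraries, of which 4 of 20 had no count, and 15 had 3 counts or more. A count of 0 allows up to 1.57 CPM in sham + v replicate 2, 1.68 CPM in sham + v replicate 4, 2.104 CPM in OVX + E2 replicate 15 and 1.44 CPM in OVX + RAL replicate 20, for counting error only. In the OVX + E2 group *Mag* had 16.6, 29.5, 246, 0.890 and 0 CPM in replicates 11 to 15, and in the OVX + v group 10.6, 17.6, 138, 8.92 and 9.76 CPM in replicates 6 to 10. A single library made up most of each of these sums. The log2 fold change between these groups was 0.66 (standard error 1.11), and it was -1.65 without OVX + E2 replicate 13 and 2.32 without OVX + v replicate 8.

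*Cnp*, an enzyme of the cytoplasm-filled parts of myelin, had 57.1, 143, 82.8, 65.6 and 74.0 CPM in OVX + RAL replicates 16 to 20, and 335, 112, 170, 75.3 and 71.8 CPM in OVX + v replicates 6 to 10. Its log2 fold change in the OVX + RAL group was -0.86 (standard error 0.449, unadjusted p = 0.0580, adjusted p = 0.455, edgeR), and -0.35 without OVX + v replicate 6, which had the highest value of all libraries. *Cnp* overlaps *Dnajc7* on the opposite strand, and the sources used here do not say whether counting used the strand, so that reads of the pair may not be told apart.

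*Prx*, periaxin, links the outer Schwann cell membrane to the basal lamina through a dystroglycan complex. It had 75.5, 102, 73.5, 31.9 and 271 CPM in sham + v replicates 1 to 5, and 57.9, 75.9, 32.3, 82.2 and 14.6 CPM in OVX + v replicates 6 to 10. In the OVX + E2 group it had 172, 192, 52.1, 65.9 and 51.9 CPM in replicates 11 to 15. In the OVX + E2 group, replicates 11 and 12 were thus highest in *Prx*, and replicates 13 and 14 in *Mbp*. Its log2 fold change was 1.07 in sham + v libraries (adjusted p = 0.621 by edgeR, standard error 0.626) and 1.02 with estradiol (adjusted p = 0.860 by edgeR, standard error 0.782). Without sham + v replicate 5 the former was 0.43.

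*Sox10* encodes the transcription factor that specifies Schwann cells, and is also expressed in melanocytes and in supporting cells of the inner ear. Its values in the OVX + E2 group lay in separate ranges, with 141, 286 and 161 CPM in replicates 11, 12 and 15 and 499 and 571 CPM in replicates 13 and 14. The OVX + v libraries had 204 to 585 CPM (median 473). With estradiol the log2 fold change was -0.38 (standard error 0.331, adjusted p = 0.961, edgeR). It was -0.18 without replicate 11 alone and -0.66 without replicate 14 alone. Without replicates 13 and 14 it was -1.14 (standard error 0.367, unadjusted p = 0.00197, adjusted p = 0.642, edgeR), and with the number of genes with a count as a covariate -2.03 (standard error 0.653, unadjusted p = 0.00186, adjusted p = 0.728, edgeR), neither of which passed. The covariate does not overlap between OVX + E2 and OVX + v, so that the latter fit cannot tell it apart from the group. The 6 melanocyte markers summed to 352 to 1147 CPM in the sham + v libraries, 530 to 1425 CPM in the OVX + v, 570 to 1184 CPM in the OVX + E2 and 758 to 1645 CPM in the OVX + RAL libraries, and 0 of them passed the threshold. *Dct*, an enzyme of pigment synthesis, had 629 ± 277 CPM in OVX + E2 and 777 ± 289 CPM in OVX + v, and *Pmel*, a protein of pigment granules, 50.6 ± 47.7 and 77.2 ± 42.4 CPM. Of the 6 markers, 4 had a log2 fold change below 0 with estradiol and 2 above. The 2 were *Mitf*, the main transcription factor of melanocytes, with 79.1 CPM in OVX + E2 and 10.8 CPM in OVX + v (adjusted p = 0.351, edgeR), and *Tyrp1*, with 8.42 and 0 CPM, both named after their values were seen. The part of these cells in the level of *Sox10* was not tested.

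*Egr2* encodes the transcription factor that switches on myelin genes. It had no count in 7 of 20 libraries, 3 of them in the sham + v group, where the values were 1.46, 0, 18.4, 0 and 0 CPM in replicates 1 to 5. The OVX + v libraries had 34.3, 35.8, 0, 6.93 and 17.4 CPM in replicates 6 to 10. For sham + v the log2 fold change was -2.23 (standard error 2.26, unadjusted p = 0.323, edgeR), and -5.41 (standard error 2.96, adjusted p = 0.519, edgeR) without sham + v replicate 3. In the OVX + E2 group 104 CPM in replicate 12 stood against 0 to 25.8 CPM in the other 4 libraries.

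The other genes of myelin and Schwann cells were read from lists of 6 to 10 genes, and none of them passed the threshold in any comparison by edgeR. Of the other myelin membrane proteins, 7 of 9 were tested and 0 passed in each comparison with OVX + v libraries. With estradiol their median log2 fold change was 0.37, beside -0.06 for all genes and 0.45 for the 8 members. Of the 8 members 5 were above 0 and 3 below, beside 47.5% of all genes above 0. List medians were taken from the main fit only. Without OVX + E2 replicates 13 and 14, *Mbp* (0.39), *Prx* (1.40) and *Egr2* (1.16) stayed above 0. The other members were then below 0: *Pmp22* (-0.31), *Cnp* (-0.41), *Mag* (-1.27), *Mal* (-0.19) and *Sox10* (-1.14).

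Of the genes of myelin lipid synthesis, 8 of 8 were tested and 0 passed, with a median log2 fold change of 0.03 for sham + v, 0.41 with estradiol and -0.14 with raloxifene. *Scd2*, a fatty acid desaturase, had 759 ± 155 CPM in OVX + E2 and 656 ± 116 CPM in OVX + v, and *Fads2*, another desaturase, 346 ± 115 and 345 ± 133 CPM. In the list of receptors and ligands of Schwann cells, 9 of 10 genes were tested and 0 passed, with a median log2 fold change of 0.01 with estradiol, 5 above 0 and 4 below. *Adgrg6*, a receptor needed for myelination, had 270 ± 76.4 CPM in OVX + E2 and 209 ± 74.6 CPM in OVX + v, and *Dag1*, dystroglycan, 258 ± 68.0 and 213 ± 30.3 CPM. Of the basal lamina and periaxin-dystroglycan genes 6 of 6 were tested and 0 passed (median 0.24 on the log2 scale with estradiol), with *Utrn* at 294 ± 174 and 243 ± 96.5 CPM and *Lamb2* at 149 ± 77.4 and 174 ± 63.1 CPM in the OVX + E2 and OVX + v groups.

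In the list of paranode, node and uncompacted myelin genes, 8 of 8 were tested and 0 passed (median 0.10 on the log2 scale with estradiol); *Cntn1* and *Nfasc*, adhesion proteins of the axon and glia junction, had log2 fold changes of 0.19 and -0.16 in the OVX + E2 group. Of the transcription and lineage factors, 7 or 8 of 8 were tested by comparison and 0 passed (median 0.44), with *Tead1* at -0.03 and *Nab2*, a partner of EGR proteins, at 0.70 on the log2 scale in the OVX + E2 group. Of the non-myelinating and satellite glia genes 8 of 9 were tested and 0 passed (median 0.03), with *Plekhb1* at 0.25 and *Gpm6b* at -0.19. The neuron and axon markers summed to 234 ± 130 CPM in OVX + E2 and 260 ± 124 CPM in OVX + v (SD, n = 5), and 0 of their 8 to 10 tested genes passed (median log2 fold change with estradiol -0.19). *Nefm*, a neurofilament, had a log2 fold change of -0.49 and *Calb2* of 0.84 in the OVX + E2 group. The hair and supporting cell markers summed to 3574 ± 590 and 3351 ± 457 CPM in these groups, with *Ush1c* at 0.14 on the log2 scale.

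No member was shown to vary together with *Mbp*. Each of the 10915 other genes with a mean of at least 10 counts per library was compared with *Mbp* over the 20 libraries. Among the 10 genes with the highest Pearson's r were *Nipa2*, *mt-Nd3*, *Sort1*, *Hipk2*, *Asah2*, *Cdc42bpg*, *Iqgap1*, *Nup160* and *D5Ertd579e*, with r between 0.768 and 0.693. For *Nipa2* r was 0.768 (permutation p = 0.00016, adjusted p = 0.0884), and Spearman's rho was 0.750 (permutation p = 0.0003, adjusted p = 0.190). This r was 0.737 without the 2 libraries farthest from the median of *Mbp* and 0.676 after the group means were subtracted. None of the 10915 genes passed an adjusted p of 0.05 by this permutation test.

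Of the members, *Pmp22* was nearest to *Mbp*, with an r of 0.519 (rho 0.429, permutation p = 0.0200 and 0.0602, adjusted p = 0.337 and 0.658) and rank 109. Without OVX + E2 replicates 13 and 14 this r was 0.24, and it was 0.667 over all 20 libraries after the group means were subtracted. The r with *Mbp* was 0.331 for *Mal*, 0.252 for *Prx*, 0.201 for *Sox10*, 0.193 for *Egr2*, 0.164 for *Mag* and -0.088 for *Cnp*, with adjusted p between 0.582 and 0.909. Between the other members, the highest r was that of *Sox10* with *Pmp22*, 0.419, and the lowest that of *Sox10* with *Prx*, -0.262.

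**Figure D3:**
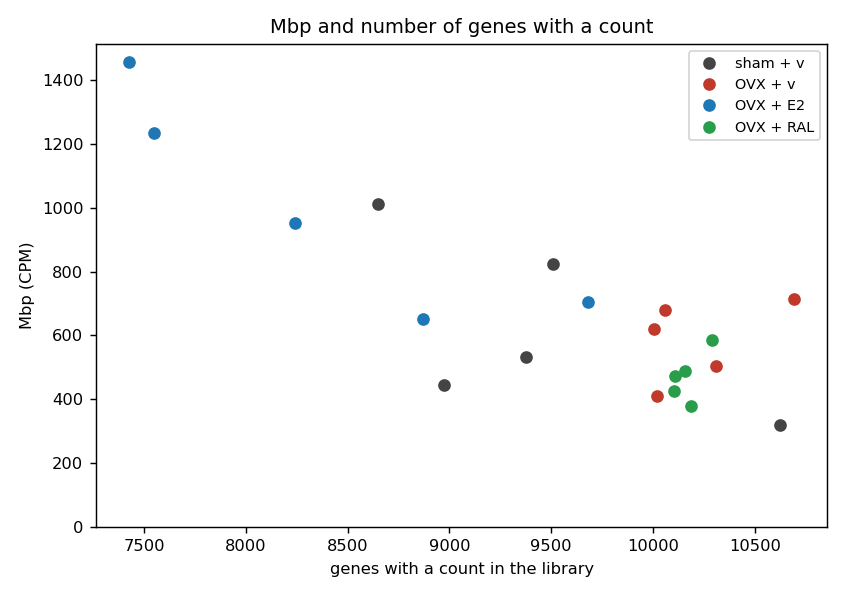
CPM of *Mbp* (vertical axis) against the number of genes with a count (horizontal axis, which does not start at 0), one point a library, coloured by group. OVX + E2 replicates 13 and 14, with 7547 and 7427 genes, had the most *Mbp* (r = -0.780 over the 20 libraries, on log2(CPM + 1)).

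**Figure D4:**
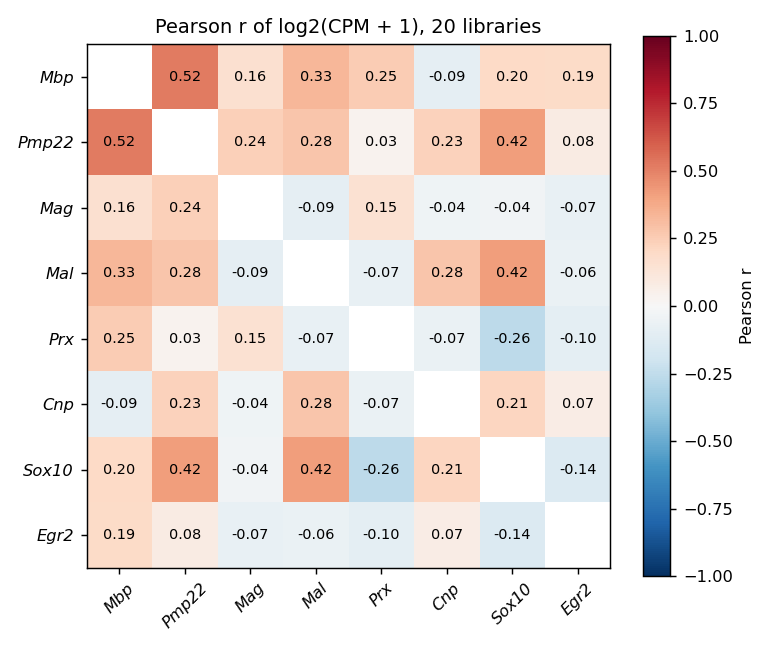
Pearson's r of log2(CPM + 1) over the 20 libraries for each pair of the 8 genes (colour from -1 to 1, with the value written in). The highest is *Mbp* with *Pmp22*, 0.519.

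In GRCm39, *Pmp22* (chromosome 11, 63019808 to 63050373) and *Cnp* (chromosome 11, 100465730 to 100482555) share a chromosome, as do *Mag* (chromosome 7, 30598601 to 30614298) and *Prx* (chromosome 7, 27196813 to 27219639). *Mal* lies on chromosome 2 (127475146 to 127498615), *Egr2* on chromosome 10 (67371305 to 67378018) and *Sox10* on chromosome 15 (79039108 to 79049440). In the last 400 nucleotides of their canonical transcripts, the end from which this kit reads, no member matched another gene over 63 nucleotides at 95% identity.

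Promoter windows of 300 bases in RefSeq (GRCm38.p6, 250 bases before to 50 after the start) were found for 6 of the 8 members, all but *Mbp* and *Sox10*, in 15 windows. They were searched on both strands for short motifs bound by SOX factors (ACAAAG and ACAATG) and EGR factors (GCGGGGGCG and GCGTGGGCG), and for TATAAA, the TATA box. ACAAAG was present in 3 of 15 windows, which belong to *Mag* and *Cnp*, and in 18.7% of all 32851 promoters. ACAATG (12.6% of all promoters), GCGGGGGCG (2.91%), GCGTGGGCG (0.612%) and TATAAA (13.6%) were in none of the 15. The 2 sites found are shown with 12 bases on either side, on the strand of the gene, with the motif or its reverse complement in capitals. The *Mag* stretch is chr7:30914972-30915001 on the minus strand, with the motif at -126 from the start site of one window and -67 from that of another, and the *Cnp* stretch is chr11:100574760-100574789 on the plus strand, with the motif at -167.
Mag: tgacaagggcccCTTTGTgcccccctcccc
Cnp: aacttttaaggaACAAAGaggtggcgtggc
A match of 6 letters is a description of the sequence and not a binding site.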

How the data were processed

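RNA-seq of the mouse utricle was read from 20 libraries in 4 groups, assigned by the treatment labels. The authors mapped the reads to GRCm39 and counted them per gene in CLC Genomics Workbench; the version and the handling of strand and of reads that match several genes are not given in the sources used here. The deposited counts are raw reads per gene without normalization, and the authors' normalized columns (CPM, TPM, RPKM) and their own comparisons (fold changes, p-values) were not used. The tables hold 0 columns of other samples, and of 40 replicate pairs 0 were identical. The labels do not say that libraries of a group came from separate animals, so that p-values measure the spread between libraries.

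CPM was computed from the total count of each library. Genes with at least 10 counts over the fitted libraries were tested by edgeR 4.0.16 (quasi-likelihood, no TMM factor) in R 4.3.3, with Benjamini-Hochberg adjustment over all genes and a threshold of 0.05. Alternatives were TMM, DESeq2 1.42.0, no filter, filterByExpr, limma 3.58.1 on log2(CPM + 1), 1 fit of all groups and each library left out. Chosen after seeing the data were the comparison of OVX + E2 with OVX + RAL, the fits without OVX + E2 replicates 13 and 14, and the covariate. The number of genes in OVX + E2 did not overlap that in OVX + v or OVX + RAL. Fits of these pairs with the covariate thus extrapolate between groups. Correlations used 100000 two-sided permutations (Python 3.11.15, scipy 1.17.1). The scripts were tested on simulated data. Reads carry no molecular identifiers, so that floors of 3 counts cover counting error only.

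The members and lists were chosen with earlier results of these data known. Named were all 8 members, every listed gene past the threshold, the 2 genes with the highest mean CPM of each list and the 10 genes with the highest r with *Mbp*; *Pou4f3* and the single oligodendrocyte markers were named in addition. *Nrg1* was not analysed here. Some genes that this rule names are not reported here.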

Additional observations from a re-analysis of the deposited data

Results flagged for a closer look

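Among 32 groups of 5 values of the members, 4 held a library that lay far from the others by Dixon's gap test. All 4 belong to the members with the fewest counts, *Mag* and *Egr2*. For normally distributed values chance gives about 1.6. The values of these 2 genes are skewed and include zeros, so that 1.6 is no measure of chance for them and no excess is read. *Mag* had 138 CPM in OVX + v replicate 8 and 246 CPM in OVX + E2 replicate 13, each the highest of its group. *Egr2* had 18.4 CPM in sham + v replicate 3 and 104 CPM in OVX + E2 replicate 12, each the highest of its group.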

How the results depend on the processing

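No paired analysis was possible because the replicate numbers 1 to 20 are not shared between groups. In the 3 comparisons with OVX + v, 0 members passed under every alternative run; *Mbp* passed in the test among the 4 groups without OVX + E2 replicate 11 (0 to 1 members with each library left out) and, against OVX + RAL, by DESeq2 (1 member), in 1 fit of all groups (1 member) and without OVX + E2 replicate 11 or 15 (0 to 1 members). Of 544 member log2 fold changes under alternatives, 46 changed sign and 4, all of *Mbp*, passed. TMM moved the median of all genes for OVX + E2 against OVX + v from -0.06 to -0.17, and limma to -0.46. At the depth of these libraries *Mag* had no count in 4 libraries and *Egr2* in 7. The causes were not tested.

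Genes past the threshold numbered 1 by TMM, 12 by DESeq2, 4 by limma and 0 by filterByExpr (148 at an unadjusted p under 0.05) for sham + v; 38 by DESeq2, 1 by filterByExpr and 5 with the covariate for OVX + E2; 0 by filterByExpr (171 unadjusted) for OVX + RAL; 2 by DESeq2, 1 by filterByExpr and 0 by limma (816 unadjusted) among the 4 groups; and 42 by DESeq2, 0 by filterByExpr (151 unadjusted), 16 in 1 fit of all groups and 4 with the covariate for OVX + E2 against OVX + RAL. With each library left out they ranged from 1 to 10 for sham + v (10 without replicate 1), 6 to 17 for OVX + E2 (17 without replicate 11), 3 to 11 for OVX + RAL (over 1.5 times the main count without replicates 7, 16, 18 and 20), 17 to 28 among the 4 groups and 8 to 16 for OVX + E2 against OVX + RAL (16 without replicate 11).

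Signs changed for sham + v in *Pmp22* by TMM (-0.031) and *Mal* by limma (0.15). For OVX + E2 they changed by limma in *Mag* (-0.74), *Mal* (0.14) and *Egr2* (-0.17), without replicates 13 and 14 in *Pmp22* (-0.31) and *Mag* (-1.27), and with the covariate in *Mbp* (-0.034), *Pmp22* (-0.81) and *Mag* (-6.16). Against OVX + RAL they changed in *Pmp22* by TMM (-0.068), by limma (-0.0022), without replicates 13 and 14 (-0.45) and with the covariate (-1.20), and in *Mag* without replicates 13 and 14 (-0.61) and with the covariate (-5.81). The r with *Mbp* was 0.24 for *Pmp22* without the 2 farthest libraries and 0.47 for *Sox10* with group means subtracted.

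With each library left out, the log2 fold change for sham + v ranged from -0.15 to 0.26 (*Mbp*), -0.15 to 0.21 (*Pmp22*), -0.33 to 0.40 (*Cnp*), -0.93 to 1.57 (*Mag*) and -0.32 to 0.15 (*Mal*). For OVX + E2 it ranged from -0.58 to 0.11 (*Cnp*), -1.65 to 2.32 (*Mag*), -0.26 to 0.21 (*Mal*) and -0.64 to 1.05 (*Egr2*). For OVX + RAL it ranged from -0.017 to 0.34 (*Pmp22*), -1.41 to 1.00 (*Mag*) and -0.068 to 0.39 (*Prx*), and for OVX + E2 against OVX + RAL from -0.13 to 0.24 (*Pmp22*), -0.997 to 2.07 (*Mag*) and -0.47 to 0.035 (*Sox10*).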
